A study of Mus musculus with 3 samples.

Results

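Spots in which type IIb and type IIx myonuclei together made up most of the signal were selected from 3 spatial RNA sequencing sections of regenerating mouse tibialis anterior muscle, and the balance between the 2 myonuclei types was described across them. A spot was selected if its theta values for type IIb and type IIx myonuclei summed to at least 0.5. Theta is the authors' BayesPrism estimate of the RNA that a given cell type contributed to a spot, as a fraction from 0 to 1, made with a single-cell reference. It measures transcripts and does not count cells. The rule selected 2140 of 2758 spots. The section at 2 days post injury (dpi) gave 629 of its 859 spots, the 5 dpi section 778 of 933, and the 7 dpi section 733 of 966. The IIx fraction of a spot was its type IIx theta divided by the sum of its type IIb and IIx thetas. Spots with a IIx fraction of at least 0.2 are called IIx-high, spots below 0.05 IIx-low, and those between them intermediate. Across the 3 sections, 586 spots were IIx-high, 1008 were IIx-low and 546 were intermediate.

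The sections came from female C57BL/6J mice aged 5 months. All 3 muscles had been injected with notexin, a phospholipase from snake venom that kills myofibers but spares muscle stem cells (MuSCs), and were collected at 2, 5 or 7 dpi. There was no uninjured section. With 1 section per time point, the animal, the section, the capture area and the time after injury cannot be told apart, so values are given per section and no test was made. Spots of 1 section are not replicates, and all intervals cover the spread or the counting of spots only. The same values also chose the groups of spots, so the IIx fraction, both myonuclei thetas and the other thetas, which sum to 1 with them, are descriptions.

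Type IIb and type IIx fibers are, with type IIa fibers, the fast fibers of mouse muscle. Type IIb fibers express the myosin heavy chain gene Myh4, contract fastest and rely mostly on glycolysis. Type IIx fibers express Myh1, and are generally more oxidative and richer in mitochondria than type IIb fibers. The tibialis anterior is dominated by IIb fibers, with IIx and IIa fibers concentrated in its deeper part. IIb and IIx were the only myonuclei types among the thetas, so RNA of IIa fibers had no type of its own. To which type that RNA was assigned was not tested. Myofibers are syncytia with many nuclei, so a myonucleus is a nucleus of a fiber and not a cell of its own. On the mouse genome (GRCm38, the assembly also called mm10) the 2 myosin genes are neighbors on the plus strand of chromosome 11. Myh1 lies at 67200052 to 67224575 and Myh4 at 67238029 to 67260446, with 13453 bases between them. Further markers of myonuclei are Ckm, the muscle creatine kinase, and Acta1, the skeletal muscle alpha-actin. The levels of these 4 genes in spots were not analysed here, so the names of the myonuclei types could not be checked against their markers and rest on the deconvolution.

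Selected spots held a wide range of transcripts. The number of unique molecular identifiers (UMIs, one per captured transcript) in a selected spot ranged from 1027 to 19690 with a median of 6562 at 2 dpi, from 1088 to 34644 with a median of 10712 at 5 dpi, and from 1059 to 48442 with a median of 14950 at 7 dpi. The median sum of the IIb and IIx thetas was 0.862, 0.831 and 0.779 at 2, 5 and 7 dpi.

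Type IIb myonuclei dominated nearly all selected spots, and the median IIx fraction was lowest in the 2 dpi section. The median IIx fraction was 0.0209 at 2 dpi (95% interval over spots 0.0165 to 0.0264). It was 0.125 at 5 dpi (0.101 to 0.145) and 0.0849 at 7 dpi (0.0701 to 0.104). Over spots, the interval of the 2 dpi section lay below those of the later sections, and those at 5 and 7 dpi overlapped. Such intervals hold no spread between animals, so they cannot decide whether time points differ. The order of the later sections turned with the spots used: the medians at 5 and 7 dpi were 0.0490 and 0.0986 at a summed theta of at least 0.9, and 0.0544 and 0.1002 among spots with 5000 to 10000 UMIs. The values within each section covered a far wider range than the medians of the sections. At 2 dpi the lowest value was 0.000746 and the highest 0.827, with quartiles of 0.00634 and 0.103. At 5 dpi the values ran from 0.000345 to 0.797, with quartiles of 0.0108 and 0.2995. At 7 dpi they ran from 0.000561 to 0.8003, with quartiles of 0.00726 and 0.233. The mean was above the median in every section, at 0.0827 ± 0.139 (SD over 629 spots), 0.169 ± 0.166 (778 spots) and 0.143 ± 0.158 (733 spots) at 2, 5 and 7 dpi. Each section thus held a long tail of spots with a large IIx share.

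**Figure D1:**
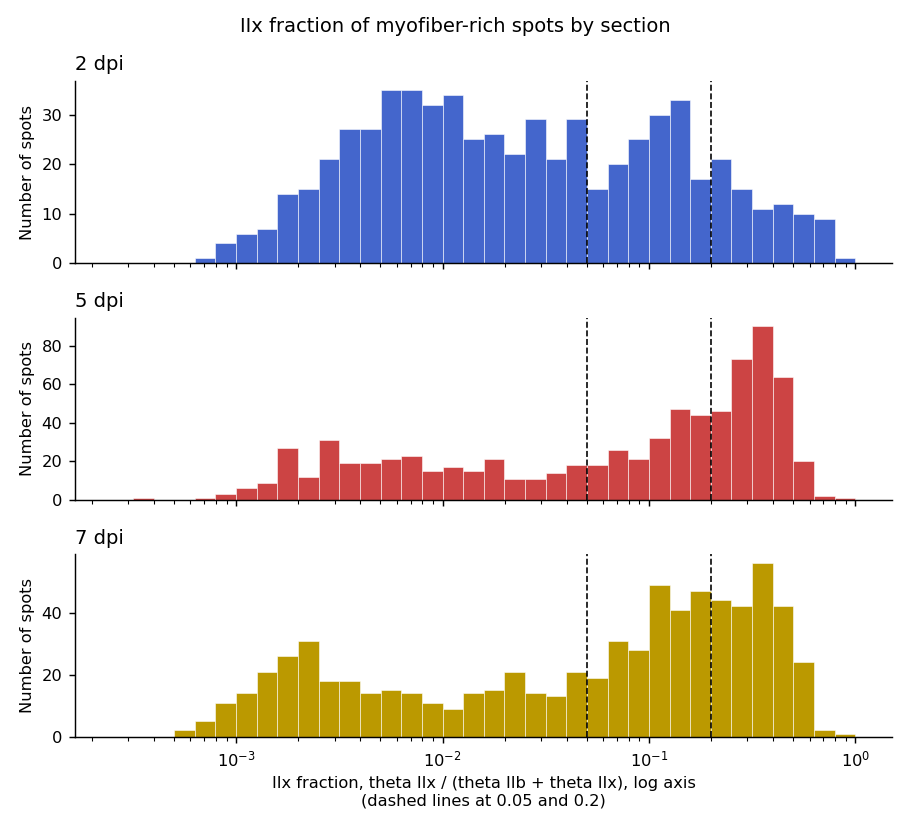
Number of selected spots by IIx fraction (log axis) in the sections at 2 dpi (blue), 5 dpi (red) and 7 dpi (yellow), with dashed lines at 0.05 and 0.2, the limits of the IIx-low and IIx-high groups. Most spots at 2 dpi lay below 0.05 (64.9%), while 38.0% of spots at 5 dpi and 28.8% at 7 dpi lay at or above 0.2.

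IIx-high spots numbered 79 at 2 dpi, which was 12.6% of the selected spots (exact 95% interval 10.1 to 15.4%). There were 296 at 5 dpi (38.0%, 34.6 to 41.6%) and 211 at 7 dpi (28.8%, 25.5 to 32.2%). IIx-low spots numbered 408 (64.9%), 293 (37.7%) and 307 (41.9%) at 2, 5 and 7 dpi. The 5 dpi section therefore held about as many IIx-high as IIx-low spots, and the 2 dpi section held far fewer. Spots in which IIx exceeded IIb, with a IIx fraction of at least 0.5, were about equally rare in the 3 sections, with 20 (3.18%), 24 (3.08%) and 27 (3.68%). The distribution had no gap at the limits of the groups. The spots nearest to the upper limit had IIx fractions of 0.201 inside and 0.197 outside at 2 dpi, 0.2002 and 0.1991 at 5 dpi, and 0.201 and 0.197 at 7 dpi. The spots nearest to the lower limit were at 0.0498 inside and 0.0501 outside at 2 dpi, 0.0498 and 0.0501 at 5 dpi, and 0.0490 and 0.0509 at 7 dpi. The limit on the summed theta was equally continuous, with 0.503 inside and 0.498 outside at 2 dpi and 0.50005 and 0.499 at 5 dpi.

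By their medians, IIx-high spots still held more IIb than IIx. IIx was the larger in 20 of 79, 24 of 296 and 27 of 211 of them. At 2, 5 and 7 dpi their median IIx theta was 0.282, 0.277 and 0.263, beside median IIb thetas of 0.501, 0.513 and 0.484. In IIx-low spots the median IIb theta was 0.830, 0.820 and 0.736, and the median IIx theta was 0.00658, 0.00498 and 0.00318. The lowest IIx theta of any IIx-high spot was 0.116, 0.105 and 0.117, above a floor that the limits on summed theta and IIx fraction set by construction. That floor also bears on how IIx compared with the other types. In IIx-high spots, IIx was above each of the 25 types other than myonuclei in 77 of 79, 267 of 296 and 192 of 211 spots at 2, 5 and 7 dpi. In IIx-low spots, IIx was under a theta of 0.01 in 269, 207 and 212 spots (65.9%, 70.6% and 69.1%), and it was below the median of the other 25 types of the same spot in 158, 80 and 151. The order of IIx fractions among such spots rests on thetas as small as those of most other types.

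Spots outside the rule also carried some IIx. Among the 230, 155 and 233 spots with a summed theta under 0.5, the median IIx fraction was 0.0398, 0.0164 and 0.0508 at 2, 5 and 7 dpi, and 16, 9 and 30 of them reached 0.2 (6.96%, 5.81% and 12.9%).

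Mitochondrial transcripts took a larger share of the UMIs in IIx-high than in IIx-low spots in all 3 sections. Mitochondrial and ribosomal protein genes were not among the genes used for deconvolution, per the study's methods. Those methods describe fewer cell types than the thetas used here. At 2 dpi the median was 40.6% in IIx-high spots (95% interval 38.1 to 42.7%), with a range of 17.5 to 72.2%, and 31.1% in IIx-low spots (29.7 to 32.0%), with a range of 11.2 to 56.9%. At 5 dpi the medians were 32.4% (31.2 to 33.3%) and 20.3% (18.6 to 22.5%). At 7 dpi they were 27.9% (25.7 to 29.1%) and 15.9% (14.9 to 16.7%). IIx-high spots were thus 9.50, 12.1 and 12.04 percentage points higher, or 1.31, 1.60 and 1.76 times the IIx-low level. The groups overlapped in their range, but 82.3%, 86.1% and 89.6% of IIx-high spots lay above the median of the IIx-low spots, and 7.35%, 11.6% and 5.54% of IIx-low spots lay above the median of the IIx-high spots.

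The mitochondrial share followed the IIx fraction in steps. At 7 dpi the median was 15.01% in spots with a IIx fraction under 0.02, 19.9% from 0.02 to 0.05, 23.9% from 0.05 to 0.1, 26.1% from 0.1 to 0.2, 27.1% from 0.2 to 0.4 and 28.7% at 0.4 or more. At 5 dpi the spots below 0.05 did not differ between the first 2 steps beyond their intervals (20.5% and 20.3%), and the later steps were at 23.2%, 29.0%, 31.2% and 36.1%. At 2 dpi the steps ran from 30.6% to 42.7%, and the 2 middle steps, 35.9% and 35.6%, did not differ beyond their intervals. Over all selected spots, Spearman's rho between the IIx fraction and the mitochondrial percent was 0.37 at 2 dpi (629 spots), 0.47 at 5 dpi (778 spots) and 0.55 at 7 dpi (733 spots), as a description of spots that share a library.

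**Figure D2:**
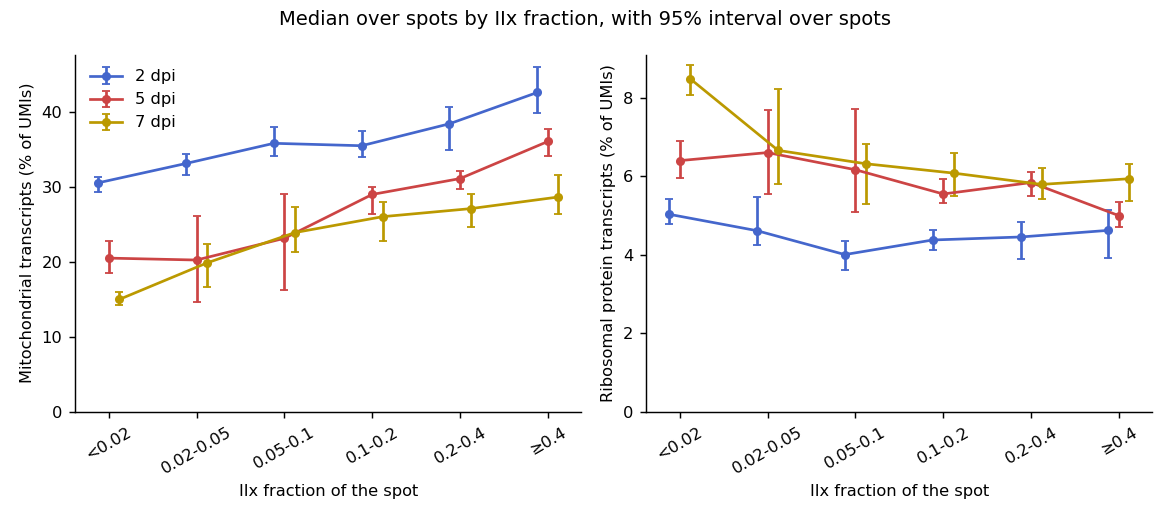
Median percent of UMIs from mitochondrial genes (left) and from ribosomal protein genes (right) in selected spots grouped by IIx fraction, with 95% intervals over spots, for 2 dpi (blue), 5 dpi (red) and 7 dpi (yellow). The mitochondrial percent was highest at a IIx fraction of 0.4 or more in each section (42.7%, 36.1% and 28.7%), and the ribosomal protein percent at 7 dpi was highest below 0.02 (8.48%).

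Depth and myofiber content also differed between spots, so the comparison was repeated among spots of like depth and of like summed theta. The selected spots of a section were divided into 5 groups by UMI count. IIx-high spots had the higher median mitochondrial percent in 5 of 5 groups in each section, and the weighted difference was 8.04, 11.1 and 10.5 percentage points at 2, 5 and 7 dpi. In the narrower window of 5000 to 10000 UMIs it was 8.47, 6.50 and 3.69 points, with 28, 56 and 33 IIx-high spots. Within 5 groups by summed IIb and IIx theta the difference was 11.6, 9.27 and 9.82 points, again with 5 of 5 groups higher in each section. Spots with the highest myofiber content showed the same order. At a summed theta of 0.9 or more, the medians of IIx-high and IIx-low spots were 43.6% and 34.4% at 2 dpi, 37.7% and 30.4% at 5 dpi, and 35.0% and 25.4% at 7 dpi. At a summed theta of 0.5 to 0.6 they were 28.9% and 16.6%, 13.8% and 11.7%, and 16.2% and 12.3%. Of the 5 groups by summed theta, those from 0.7 to 0.9 had the largest differences at 5 and 7 dpi, at 11.5 to 13.1 points.

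**Figure D3:**
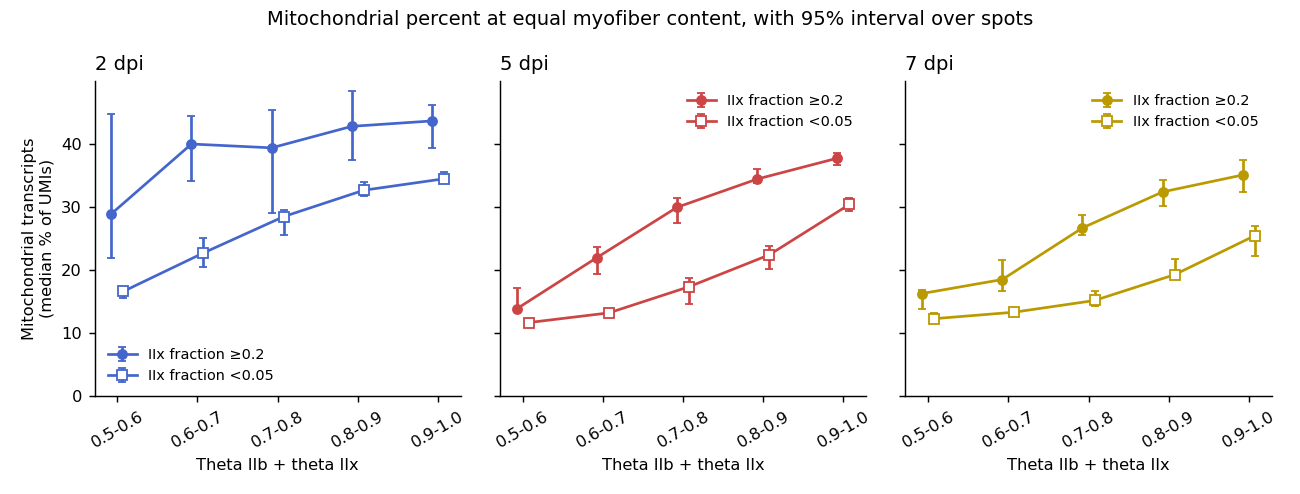
Median percent of UMIs from mitochondrial genes against the summed theta of IIb and IIx myonuclei, for IIx-high spots (filled circles) and IIx-low spots (open squares) in each section, with 95% intervals over spots. IIx-high spots were above IIx-low spots at every summed theta, for example 43.6% against 34.4% at 0.9 or more at 2 dpi.

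The mitochondrial share of selected spots as a whole was 33.4%, 27.6% and 20.5% at 2, 5 and 7 dpi, against 11.9%, 8.54% and 9.96% in the spots outside the rule. The order of the sections was thus the reverse of the order of depth, and the IIx-low spots at 2 dpi (31.1%) had a share close to that of the IIx-high spots at 5 dpi (32.4%). Levels were therefore compared within a section only.

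Ribosomal protein transcripts, which report on the translation machinery and are high in growing and immune cells, showed the opposite order in the 5 and 7 dpi sections. The median was 5.51% of UMIs in IIx-high and 6.43% in IIx-low spots at 5 dpi, and 5.88% and 8.22% at 7 dpi, differences of -0.917 and -2.35 percentage points. The 5 dpi order did not hold at every depth, since IIx-high spots were higher in 2 of 5 groups of like UMI count and by 0.492 points among spots with 5000 to 10000 UMIs. At 2 dpi the medians were 4.55% and 4.99%, with overlapping intervals. A larger mitochondrial share leaves less room for every other gene, so the percent was also taken of the UMIs that were not mitochondrial. On that scale the medians were 7.43% and 7.23% at 2 dpi and 8.21% and 8.29% at 5 dpi, with overlapping intervals in both sections, and 7.97% and 9.86% at 7 dpi. A lower ribosomal protein share of IIx-high spots thus remained on both scales at 7 dpi, with -1.88 points of non-mitochondrial UMIs.

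IIx-high spots were deeper than IIx-low spots at 2 and 5 dpi, while at 7 dpi the order turned with myofiber content. The median was 9440 UMIs (8375 to 11051) against 5821 (5242 to 6328) at 2 dpi, 1.62 times as many. At 5 dpi it was 13466.5 against 8383, 1.61 times. At 7 dpi it was 15399 (14509 to 17041) against 14512 (13816 to 15516), 1.06 times, with overlapping intervals. That ratio was 0.762 and 0.672 at summed thetas of 0.5 to 0.6 and 0.6 to 0.7, and 1.02 at 0.7 to 0.8. It was 1.26 and 1.28 at 0.8 to 0.9 and at 0.9 or more. Spearman's rho between the IIx fraction and the UMI count was -0.01, 0.35 and -0.03, so only the 5 dpi section showed a relation over the whole range. At 2 dpi the step from 0.02 to 0.05 was the shallowest, with a median of 3701 UMIs, as it was at 5 dpi with 4279.

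The number of genes detected was higher in IIx-high spots at 2 and 5 dpi and lower at 7 dpi. IIx-high spots had a median of 1987 genes against 1629.5 in IIx-low spots at 2 dpi and 2489 against 1975 at 5 dpi, but 2803 against 3046 at 7 dpi. Within the 5 groups by UMI count the weighted difference was -85.4, -214 and -396 genes, with fewer genes in IIx-high spots in each section. Among these groups, IIx-high spots had more genes in 0 of 5, 1 of 5 and 1 of 5. In the deepest group the difference was -53.5, -928.5 and -1020 genes. Among spots with 5000 to 10000 UMIs it was instead 11.5, 172 and -142.5 genes. Among spots of like non-mitochondrial UMI count the difference was -29.9, -82.9 and -73.0 genes, and IIx-high spots were lower in 3 of 5, 2 of 5 and 4 of 5 groups. The weighted gap within groups was thus smaller in each section once mitochondrial UMIs, which come from few genes, were set aside.

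The summed theta of the 25 other types, at most 0.5 by the rule, had no common direction over all depths. Its median was 0.222 in IIx-high and 0.154 in IIx-low spots at 2 dpi, 0.176 and 0.164 at 5 dpi, and 0.209 and 0.257 at 7 dpi, and the 95% intervals overlapped in each section. Among spots with 5000 to 10000 UMIs the median was higher in IIx-high spots, by 0.147, 0.150 and 0.0696. Within groups of like UMI count the weighted difference was 0.0891, 0.0433 and -0.0553. The median number of other types with a theta of at least 0.01 was 3, 3 and 4 in IIx-high and 3, 2 and 4 in IIx-low spots. By mean theta, 9 of 25 types were higher in IIx-high spots in each section. Of these, 6 were higher in all 3 sections, and 13 were lower in all 3.

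**Figure D4:**
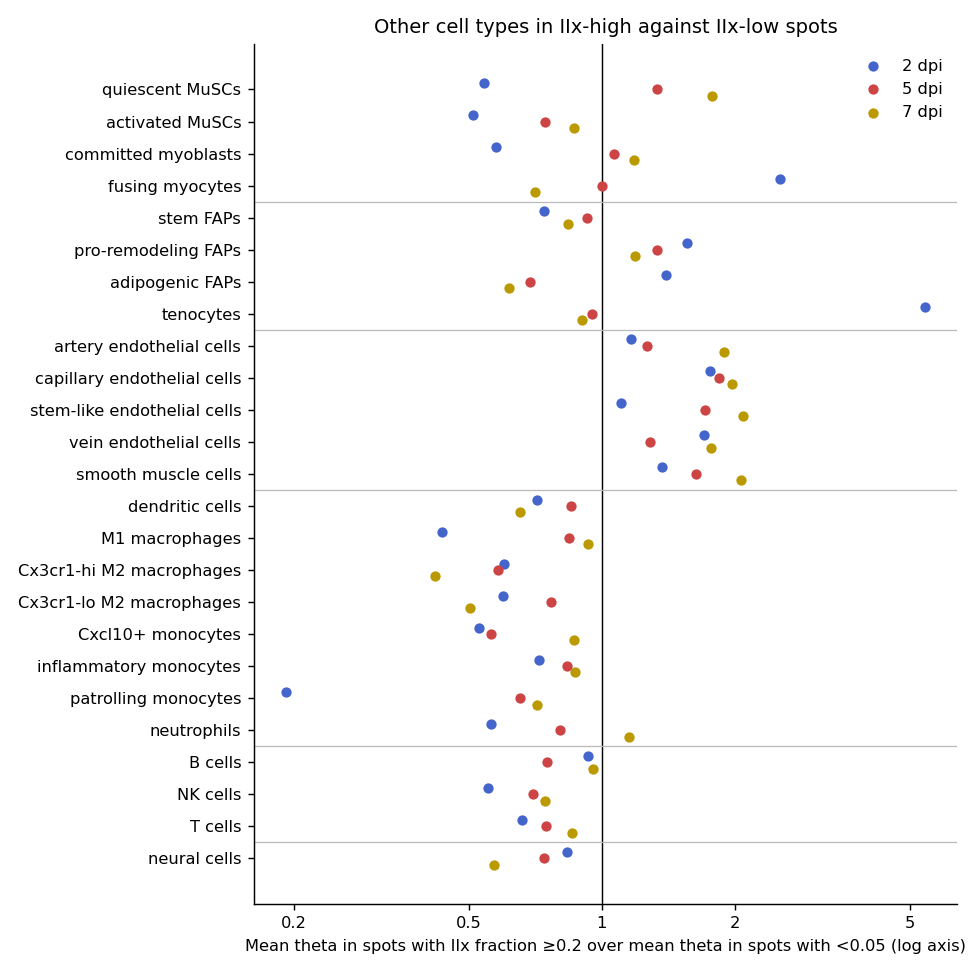
Mean theta of each of the 25 other cell types in IIx-high spots divided by that in IIx-low spots (log axis, line at 1), for 2 dpi (blue), 5 dpi (red) and 7 dpi (yellow), with lineages separated by gray lines and no error bars since there was 1 section per time point. All 4 endothelial types and smooth muscle cells lay to the right of 1 in every section, and tenocytes at 2 dpi were the farthest to the right, at 5.42.

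Cells of the vessel wall were higher in IIx-high spots. Capillary, artery, vein and stem-like endothelial cells, which line blood vessels, and smooth muscle cells, which surround the larger ones, had a higher mean theta in IIx-high spots in each section, at 1.10 to 2.09 times the IIx-low mean. Capillary endothelial cells had a mean theta of 0.00965 in IIx-high and 0.00548 in IIx-low spots at 2 dpi, 0.00608 and 0.00330 at 5 dpi, and 0.00679 and 0.00343 at 7 dpi. They reached a theta of 0.01 in 30.4% of IIx-high spots (20.5 to 41.8%) and 10.0% of IIx-low spots (7.31 to 13.4%) at 2 dpi. The shares were 16.9% (12.8 to 21.7%) and 2.05% (0.755 to 4.40%) at 5 dpi, and 17.5% (12.7 to 23.4%) and 1.95% (0.721 to 4.21%) at 7 dpi. For capillary endothelial cells the intervals of the 2 groups did not overlap in any section. For artery, vein and stem-like endothelial cells and smooth muscle cells they overlapped at 2 dpi. At 5 dpi they overlapped for artery and vein endothelial cells. Smooth muscle cells had means of 0.00856 and 0.00626 at 2 dpi, 0.00741 and 0.00452 at 5 dpi, and 0.00976 and 0.00473 at 7 dpi. These are small thetas, and most spots of both groups were under 0.01 for each of these types.

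Summed over the 5 vessel and smooth muscle types, the median theta was 0.0321 (0.0285 to 0.0373) in IIx-high and 0.0234 (0.0216 to 0.0253) in IIx-low spots at 2 dpi. It was 0.0252 (0.0236 to 0.0264) and 0.0146 (0.0131 to 0.0157) at 5 dpi, and 0.0277 (0.0264 to 0.0304) and 0.0151 (0.0140 to 0.0162) at 7 dpi. The IIx-high level was 1.37, 1.73 and 1.84 times the IIx-low level, and it was the higher one in 5 of 5 groups of like UMI count and in 5 of 5 groups of like summed theta in every section. Hemoglobin transcripts, which come from red blood cells and are not a theta, were found in more IIx-high spots. At least 1 hemoglobin UMI was present in 40.5% of IIx-high (29.6 to 52.1%) and 22.3% of IIx-low spots (18.4 to 26.7%) at 2 dpi, 94.9% and 75.1% at 5 dpi, and 98.6% and 87.0% at 7 dpi. Among spots of like UMI count the share was higher by 15.9, 12.6 and 11.0 percentage points, in 4 of 5, 5 of 5 and 5 of 5 groups. Of all UMIs, hemoglobin took 0.0418% in IIx-high and 0.0270% in IIx-low spots at 2 dpi, 0.210% and 0.0757% at 5 dpi, and 0.217% and 0.0714% at 7 dpi. A single IIx-low spot held 63.7% of that group's hemoglobin UMIs at 2 dpi, and without the largest spot of each group the values there were 0.0324% and 0.00981%.

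Pro-remodeling FAPs were the other type with a higher mean in IIx-high spots in all 3 sections. Fibro-adipogenic progenitors (FAPs) are the mesenchymal cells of muscle that make its matrix, and this subset is marked in the reference by the matrix genes Mmp14 and Col3a1, among others. The mean theta was 0.0155 against 0.00994 at 2 dpi, 0.0274 against 0.0205 at 5 dpi, and 0.0432 against 0.0364 at 7 dpi. The share of spots that reached 0.01 differed at 5 dpi, with 64.9% (59.1 to 70.3%) against 48.8% (42.9 to 54.7%). It was 38.0% against 29.9% at 2 dpi and 76.3% against 74.6% at 7 dpi, with overlapping intervals in both sections. At 2 dpi the mean was 0.0220 in spots with a IIx fraction of 0.4 or more and 0.0110 from 0.2 to 0.4. Adipogenic FAPs, the subset linked to fat formation, had no common direction by their means. These were 0.0109 and 0.00777 at 2 dpi, 0.00734 and 0.0107 at 5 dpi, and 0.00992 and 0.0161 at 7 dpi. Their medians were lower in IIx-high spots in each section, though nearly equal at 2 dpi. They were 0.00568 and 0.00579, 0.00484 and 0.00688, and 0.00563 and 0.0110 at 2, 5 and 7 dpi. Tenocytes, the cells of tendon, stood apart at 2 dpi only, with a mean of 0.0262 in IIx-high and 0.00483 in IIx-low spots. The medians there were 0.00601 and 0.00302, and tenocytes reached 0.01 in 35.4% of IIx-high (25.0006 to 47.01%) and 8.82% of IIx-low spots (6.26 to 12.01%). The highest tenocyte theta of a IIx-high spot was 0.238. At 5 and 7 dpi the tenocyte means of the 2 groups were 0.00647 and 0.00681, and 0.00684 and 0.00759.

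**Figure D5:**
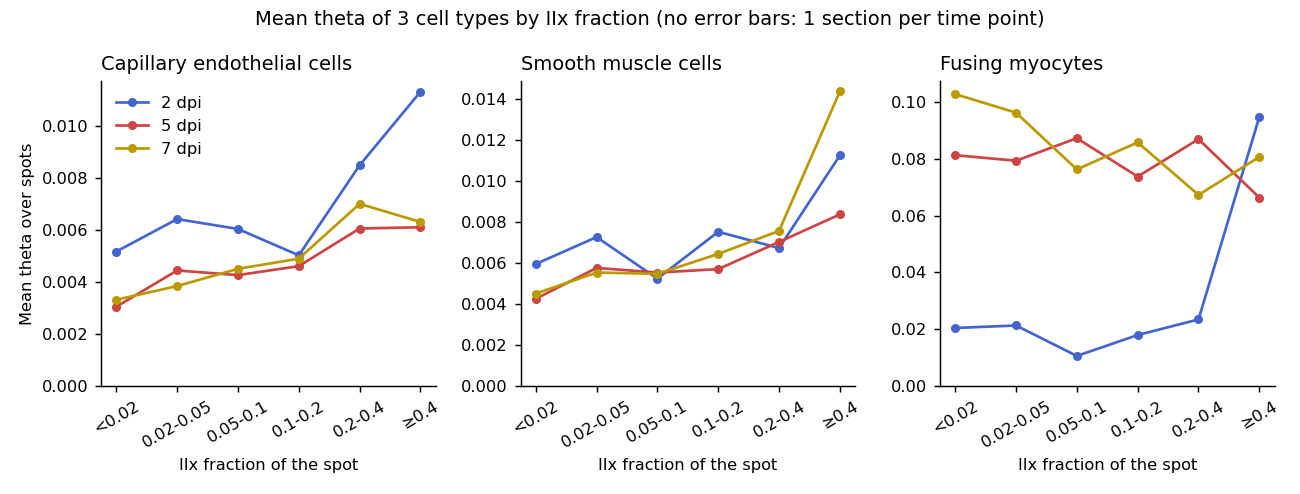
Mean theta of capillary endothelial cells, smooth muscle cells and fusing myocytes in selected spots grouped by IIx fraction, for 2 dpi (blue), 5 dpi (red) and 7 dpi (yellow), each panel with its own linear axis from 0. Fusing myocytes at 2 dpi were at 0.0948 in spots with a IIx fraction of 0.4 or more and at 0.0234 from 0.2 to 0.4.

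The myogenic types did not follow a single pattern. Fusing myocytes, the differentiated cells that join to form new fibers, had a mean theta of 0.0523 in IIx-high and 0.0206 in IIx-low spots at 2 dpi, nearly equal means of 0.0811 and 0.0810 at 5 dpi, and 0.0716 and 0.101 at 7 dpi. At 5 dpi they nevertheless reached 0.01 in 88.2% of IIx-high (83.9 to 91.6%) and 67.9% of IIx-low spots (62.2 to 73.2%), and the difference of the means ran from -0.0212 to 0.0443 over the alternatives. The medians kept these orders at 2 and 7 dpi, with 0.0271 and 0.00894, and 0.0459 and 0.0866. The 2 dpi value came from the spots richest in IIx. Their mean was 0.0948 in the 32 spots with a IIx fraction of at least 0.4, and 0.0234 in the 47 spots from 0.2 to 0.4, near the 0.0204 of the 309 spots under 0.02. The highest fusing myocyte theta at 2 dpi was nevertheless in a IIx-low spot, at 0.227 against 0.213 in IIx-high spots.

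Quiescent MuSCs, the resting stem cells of muscle, had lower means in IIx-high than IIx-low spots at 2 dpi (0.00449 and 0.00832) and higher means at 5 dpi (0.00503 and 0.00378) and 7 dpi (0.00617 and 0.00348). At 7 dpi they reached 0.01 in 15.2% of IIx-high spots (10.6 to 20.7%) and 2.61% of IIx-low spots (1.13 to 5.07%). Committed myoblasts, which have entered differentiation, followed the same order by their means. These were 0.00540 and 0.00936 at 2 dpi, 0.00794 and 0.00743 at 5 dpi, and 0.0106 and 0.00898 at 7 dpi. Over the alternatives, quiescent MuSCs kept their sign in 12 of 12 in each section. Committed myoblasts kept theirs in 12, 11 and 11 of 12, with differences down to -0.000250 at 5 dpi and -0.000912 at 7 dpi. Activated MuSCs were lower in IIx-high spots by their mean in each section, with 0.00538 and 0.0105 at 2 dpi, 0.00521 and 0.00702 at 5 dpi, and 0.00611 and 0.00705 at 7 dpi. This order did not hold throughout. Their median at 7 dpi was 0.00496 in IIx-high and 0.00484 in IIx-low spots, and the weighted difference within UMI groups at 5 dpi was 4.65e-05.

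By their means over all depths, nearly all immune types were lower in IIx-high spots. This order of means depended on depth at 5 dpi and, for lymphoid types, at 2 dpi. All 8 myeloid and all 3 lymphoid types had lower means in IIx-high spots at 2 and 5 dpi, as did 7 of 8 and 3 of 3 at 7 dpi, where neutrophils were the exception. Summed over the myeloid types, the median theta was 0.0302 in IIx-high and 0.0427 in IIx-low spots at 2 dpi, 0.0186 and 0.0224 at 5 dpi, and 0.0245 (0.0214 to 0.0280) and 0.0408 (0.0345 to 0.0463) at 7 dpi. The intervals were separate at 7 dpi and overlapped in the other sections. Within groups of like UMI count, IIx-high spots had the lower median summed myeloid theta in 2 of 5, 2 of 5 and 5 of 5 groups. For this sum, only the 7 dpi order was thus seen at every depth. The weighted differences were -0.00328, 0.00515 and -0.0167. By weighted means within these groups, 8 of 8, 4 of 8 and 7 of 8 myeloid types were lower in IIx-high spots. For lymphoid types it was 1 of 3, 1 of 3 and 3 of 3. The summed lymphoid theta was the higher one in IIx-high spots in 3 of 5, 5 of 5 and 2 of 5 such groups, with weighted differences of 0.000451, 0.00110 and -0.000498.

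Patrolling monocytes showed the largest difference among the immune types at 2 dpi. Their mean theta was 0.00585 in IIx-high and 0.0304 in IIx-low spots, and they reached 0.01 in 13.9% (7.16 to 23.5%) and 39.2% (34.4 to 44.1%) of spots. Their means were 0.00334 and 0.00513 at 5 dpi and 0.00443 and 0.00623 at 7 dpi. M1 macrophages, the inflammatory macrophages of early injury, had means of 0.00437 and 0.0101 at 2 dpi, 0.00323 and 0.00383 at 5 dpi, and 0.00366 and 0.00394 at 7 dpi. Cx3cr1-hi M2 macrophages, of the kind linked to repair, had means of 0.00467 and 0.00780 at 2 dpi, 0.00373 and 0.00642 at 5 dpi, and 0.00557 and 0.0133 at 7 dpi. At 7 dpi they reached 0.01 in 16.6% of IIx-high spots (11.8 to 22.3%) and 43.3% of IIx-low spots (37.7 to 49.1%).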

How the data were processed

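Visium spot values of 3 sections (1 each at 2, 5 and 7 dpi, assigned by the labels' treatment) were used. Per the study's methods, the authors aligned reads to mm10 with Space Ranger (1.0 in the submitters' processing notes), chose spots over tissue by hand and used Seurat 3.2.1. The authors deposited UMI counts and gene numbers per spot without normalization, percent values (mitochondrial, hemoglobin and ribosomal protein UMIs of a spot's UMIs) and theta fractions, which sum to 1 over 27 cell types. The methods describe BayesPrism run on a list of marker genes that left out mitochondrial and ribosomal protein genes. They describe fewer types than the deposited fractions, which may come from another version. Whether that version left out the same genes is not known. Gene-level values were not analysed here.

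Medians carry binomial order-statistic intervals and shares exact Clopper-Pearson intervals, both at 95%. Differences within 5 groups by UMI count, or by summed theta in steps of 0.1, were weighted by the smaller spot number of a group. The same array barcodes recur by design: 505 were shared by all 3 sections. The code was tested on simulated data and run in Python 3.11.15 (numpy 2.4.6, pandas 2.3.3, scipy 1.17.1). UMIs behind each percent came out whole within 1e-06 in 100% of values. No minimum on UMIs was added. Members, limits and lists were chosen with earlier results of these data known. Types given with values were the 4 myogenic types, pro-remodeling FAPs, capillary endothelial cells and those whose mean theta differed by 0.005 or more between the groups in a section; neutrophils and the vessel types were named after their values were seen. Alternatives were other limits on summed theta, UMIs and IIx fraction, means or UMI weights, rescaled theta and comparisons within groups. Chosen after seeing the data were groups by non-mitochondrial UMIs, IIx-high limited to 0.2 to 0.4 and, for other types, medians and comparisons within groups.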

Additional observations from a re-analysis of the deposited data

Results flagged for a closer look

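Fusing myocytes differed between IIx-high and IIx-low spots in opposite directions in the sections. At 2, 5 and 7 dpi the mean theta of IIx-high minus IIx-low spots was 0.0317, 9.68e-05 and -0.0298. The difference between the sections was not tested, since each time point had 1 section. At 2 dpi the difference was 0.00279 with IIx-high limited to IIx fractions of 0.2 to 0.4 and 0.00282 at a summed theta of at least 0.9. At 7 dpi it was 0.00607 among spots with 5000 to 10000 UMIs and 0.000393 at a summed theta of at least 0.9, the 2 alternatives of 12 that turned its sign.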

How the results depend on the processing

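The mitochondrial difference kept its sign in every alternative in each section, from 3.69 to 13.9 percentage points over all sections. It moved beyond the limits that the intervals of its medians allow to 8.60 at a summed theta of at least 0.7, 7.33 at 0.9 and 6.50 among spots with 5000 to 10000 UMIs at 5 dpi, and to 3.69 among the last at 7 dpi. The share of IIx-high spots at 2, 5 and 7 dpi was 8.06%, 25.4% and 18.97% at a summed theta of at least 0.9, 25.3%, 53.9% and 47.5% with the limit at 0.1, and 7.63%, 24.9% and 18.6% with it at 0.3. Among spots with 5000 to 10000 UMIs it was 24.8% at 5 dpi and 24.6% at 7 dpi. In place of the median IIx fraction, the mean was 0.0827, 0.169 and 0.143 and the UMI-weighted value 0.1001, 0.205 and 0.147. The median was 0.0117, 0.0544 and 0.1002 among spots with 5000 to 10000 UMIs, and 0.0240, 0.0490 and 0.0986 at a summed theta of at least 0.9, so both alternatives put 7 dpi above 5 dpi.

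The ribosomal protein difference was 0.199 at 2 dpi and -0.0725 at 5 dpi of non-mitochondrial UMIs. It reversed to 0.492 at 5 dpi among spots with 5000 to 10000 UMIs, and at 7 dpi it was -0.707 there, -1.42 and -0.692 at a summed theta of at least 0.7 and 0.9, and -1.46 within groups of summed theta. The UMI ratio was 1.14, 1.04 and 0.872 among spots with 5000 to 10000 UMIs, which limits depth by construction, and 1.28 at 7 dpi at a summed theta of at least 0.9. The gene number difference was 11.5 at 2 dpi and 172 at 5 dpi among spots with 5000 to 10000 UMIs. Within UMI groups it reversed to -85.4 and -214, and within groups by non-mitochondrial UMIs to -29.9 and -82.9. The non-myonuclear theta difference was 0.147, 0.150 and 0.0696 among spots with 5000 to 10000 UMIs and 0.0531 at 5 dpi at a summed theta of at least 0.7. The number of other types higher in IIx-high spots was 15 at a summed theta of at least 0.7, 24 among spots with 5000 to 10000 UMIs and 18 within UMI groups at 5 dpi, and 16 at 0.9 or more at 7 dpi. Where no construction is named, the cause was not tested.

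The 4 endothelial types and smooth muscle cells were higher in IIx-high spots in all 12 alternatives in every section, and pro-remodeling FAPs in 11, 12 and 11 at 2, 5 and 7 dpi. Of the 13 types lower in all sections, 5 were lower in all of them within UMI groups: both M2 macrophage subsets, Cxcl10+ monocytes, patrolling monocytes and NK cells. How small thetas depend on depth was not tested. No paired analysis was possible because each time point had 1 section, and no replicate could be left out.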
